A study of Mus musculus with 12 samples.

Results

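The P53 family and its feedback regulators were followed here as 8 genes chosen by symbol, out of the 24881 gene symbols of the expression table. They are *Trp53*, *Trp63* and *Trp73*, which encode P53 and its relatives P63 and P73, and the regulators *Mdm2*, *Mdm4*, *Ppm1d*, *Ccng1* and *Trp53inp1*. RNA was sequenced from R1 mouse embryonic stem cells (ESCs) in G1 phase, sorted by their FUCCI reporters, fluorescent proteins whose levels follow the cell cycle. The 4 groups were WT 2i, P53-/- 2i, WT serum and P53-/- serum, each with 2 libraries, and 4 of the 12 samples (P21-/- 2i and the WT 2i samples labelled with them) were not analysed here. Both genotypes carry the FUCCI reporters. 2i is a defined medium with LIF and inhibitors of MEK and of GSK3, and serum is serum medium with LIF. P53-/- ESCs were made with CRISPR-Cas9 and a guide RNA against an exon shared by the *Trp53* isoforms, and the study names P53-/- clones 1 and 2 for this experiment without assigning a clone to a column. Libraries of a group are therefore numbered only in the order of the columns, and p values measure the spread between these libraries.

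P53 is a transcription factor that is kept at a low level by the proteins it induces. MDM2, itself the product of a P53 target gene, is a ubiquitin ligase that sends P53 to the proteasome, and its relative MDM4 binds P53 and blocks its activation domain. The phosphatase encoded by *Ppm1d* removes activating phosphates from P53 and from the kinases that act on it, cyclin G1 (*Ccng1*) brings a phosphatase to MDM2, and TP53INP1 (*Trp53inp1*) promotes the phosphorylation of P53. ESCs are known for abundant P53 and for a cell cycle with a short G1 phase in serum.

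The values are FPKM, fragments per kilobase of transcript after scaling to a fixed number of mapped fragments, so that levels can be compared between genes as well as between libraries. From the steps between low values, the depth was estimated at 5130000 to 12880000 fragments per library, with the absolute scale resting on transcript models of another build, and 1 fragment on a transcript of 1 kb then corresponds to 0.0776 to 0.195 FPKM. Median-ratio scaling factors lay between 0.9875 and 1.028, and the median SD within groups was 0.106 to 0.178 on the log2 scale. The 10 ESC markers, *Pou5f1*, *Sox2* and *Nanog* among them, summed to between 3660 and 4580 FPKM in a library. *Dppa5a* was the highest of them in each group, with means of 1410 to 2330 FPKM. The lowest group mean was 5.42 FPKM (*Utf1* in P53-/- 2i), beside 50.9 for *Utf1* in P53-/- serum. Of 20 markers of other cell types, 15 were below 1 FPKM in both libraries in each 2i group and 17 in each serum group. Their sum was 70.7 to 127 FPKM in WT 2i, 57.1 to 59.6 in P53-/- 2i, 20.9 to 21.6 in WT serum and 14.4 to 20.7 in P53-/- serum, most of it *Krt8* in 2i. *Thy1* was the highest of them in serum, with means of 7.88 FPKM (WT) and 9.55 (P53-/-). *Col3a1*, *Postn* and *Krt14* were listed at 0 in the 8 libraries. In each genotype, of 6 of these markers tested, *Thy1* was lower in 2i than in serum and *Gata4*, *Krt18*, *T* and *Krt8* were higher. Of all genes, 55.7% (WT) and 58.2% (P53-/-) were called for culture in either direction. Of the ESC markers, *Klf4* was lower in P53-/- 2i and none was called in serum. In such bulk libraries fewer cells of a type and less RNA per cell cannot be told apart, and the part of other cells in the results was not tested.

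Promoter windows of RefSeq (GRCm38.p6, 250 bases before to 50 bases after a start site) matched 6 of the 8 genes, all but *Trp63* and *Trp53inp1*. They were searched for the P53 half-site, the 10-base element that P53 binds in pairs, in its consensus form without a mismatch, which reads the same on both strands. It was in the windows of 4 of these 6 genes, *Trp53*, *Mdm2*, *Ppm1d* and *Ccng1*, while 9.55% of the 27025 genes with a window, and 8.36% of their 32851 windows, held it. It was not in either window of *Mdm4* or of *Trp73*. A match describes these letters only and is not a binding site, and *Mdm2* is known to have a second promoter, inside its first intron, at which P53 acts. The 4 windows are shown because they belong to a family member and to regulators that fell to very different degrees below, with the half-site in capitals, 5′ to 3′ on the strand of the gene. They lie at chr11:40755237-40755536 (minus strand, *Ccng1*), chr10:117710709-117711008 (minus strand, *Mdm2*), chr11:69580109-69580408 (plus strand, *Trp53*) and chr11:85311004-85311303 (plus strand, *Ppm1d*), and the half-sites begin at positions -185, -186, -75 and -132 from the start site.
Ccng1: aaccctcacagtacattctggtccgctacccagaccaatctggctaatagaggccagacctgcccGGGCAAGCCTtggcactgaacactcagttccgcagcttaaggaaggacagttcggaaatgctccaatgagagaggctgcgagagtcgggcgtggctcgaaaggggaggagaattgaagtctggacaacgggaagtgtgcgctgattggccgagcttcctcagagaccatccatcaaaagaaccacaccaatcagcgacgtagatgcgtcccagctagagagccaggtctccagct
Mdm2: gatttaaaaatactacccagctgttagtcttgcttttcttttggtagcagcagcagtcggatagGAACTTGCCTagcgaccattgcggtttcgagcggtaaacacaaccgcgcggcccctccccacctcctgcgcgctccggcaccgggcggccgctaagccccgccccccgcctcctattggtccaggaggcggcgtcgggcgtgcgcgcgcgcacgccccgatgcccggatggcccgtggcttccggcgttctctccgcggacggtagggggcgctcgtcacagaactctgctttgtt
Trp53: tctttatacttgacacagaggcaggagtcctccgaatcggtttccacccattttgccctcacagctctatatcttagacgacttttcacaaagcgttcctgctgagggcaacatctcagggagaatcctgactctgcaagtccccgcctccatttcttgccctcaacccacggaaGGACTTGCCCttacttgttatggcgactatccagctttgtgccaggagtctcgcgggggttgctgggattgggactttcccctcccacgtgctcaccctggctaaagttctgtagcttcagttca
Ppm1d: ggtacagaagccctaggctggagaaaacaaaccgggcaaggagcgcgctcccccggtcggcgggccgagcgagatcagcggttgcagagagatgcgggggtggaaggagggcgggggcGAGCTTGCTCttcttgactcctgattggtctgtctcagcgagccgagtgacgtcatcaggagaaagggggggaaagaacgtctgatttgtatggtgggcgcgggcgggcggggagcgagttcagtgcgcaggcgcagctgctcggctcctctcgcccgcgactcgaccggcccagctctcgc

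*Trp53* comes first because it is the edited gene. Its level in 2i was 26.8 and 33.7 FPKM in the WT libraries against 7.25 and 1.88 in the P53-/- libraries. The serum libraries gave 77.6 and 75.1 FPKM (WT) against 16.8 and 3.68 (P53-/-). In both cultures each P53-/- library lay below each WT library, as was true of the 6 members tested and of 24.7% of all genes tested in 2i and 21.8% in serum, and *Trp53* RNA was present in all 4 P53-/- libraries. The mean of P53-/- was 15.1% of that of WT in 2i and 13.4% in serum, and these sizes depended on the P53-/- library taken. FPKM covers the whole gene, so the edited exon is not resolved and the level is no direct check of the edit. The log2 fold change in 2i was -2.98 (standard error 0.74, limma adjusted p = 0.0547), which passed the thresholds used throughout (0.1 for the adjusted p and 1.5-fold for the size). It was -3.93 without P53-/- 2i library 1 and -2.04 without library 2. In serum the log2 fold change of -3.26 did not pass (limma adjusted p = 0.15). It was called without P53-/- serum library 1 (-4.34, limma adjusted p = 0.074) and was -2.18 without library 2 (limma adjusted p = 0.461). The call in 2i was lost when any of 5 of the 8 libraries was left out, with limma adjusted p values up to 0.249 without P53-/- 2i library 2. The others were WT 2i libraries 1 and 2 (0.134 and 0.155) and WT serum libraries 1 and 2 (0.133 and 0.107).

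The P53-/- libraries of 1 culture differed from each other in *Trp53*, 3.86-fold in 2i and 4.56-fold in serum. On the log2 scale these differences were 1.89 and 2.16, and 99.0% of the genes tested had a smaller difference between the same libraries in each case. The WT libraries differed by 1.26-fold in 2i and 1.03-fold in serum. None of the other 5 genes that passed the filter showed such a gap between P53-/- libraries. *Mdm2* differed by 1.04-fold between the P53-/- 2i libraries and by 1.1-fold between the P53-/- serum libraries, and *Ccng1* by 1.03-fold and 1.25-fold. *Wrap53*, which lies next to *Trp53* on the opposite strand, was at 11.9 ± 1.61 FPKM (SD, n = 2) in WT 2i against 11.1 ± 1.25 (SD, n = 2) in P53-/- 2i, with a log2 fold change of -0.10 (limma adjusted p = 0.761). In serum its log2 fold change was -0.14 (limma adjusted p = 0.779). The libraries were stranded, but how strand was used in counting is not given in the sources used here.

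The other family members were at the edge of detection. *Trp63*, which encodes a P53 relative of stratified epithelia, was measured at 0.0759 and 0.0407 FPKM in the WT 2i libraries against 0.0624 and 0.0392 in the P53-/- 2i libraries, and was listed at 0 in the 4 serum libraries. These ranges overlapped in 2i, and the values are of the size of a few fragments. *Trp73*, whose product is known for roles in neurons and multiciliated cells, was measured in WT at 0.333 and 0.55 FPKM in 2i against 0.169 and 0.0922 in serum. In P53-/- 2i it was listed at 0 in library 1 and at 0.0403 in library 2, and in P53-/- serum at 0.0348 and 0.0231. The P53-/- libraries were below the WT libraries in both cultures, and WT 2i was above WT serum. Both genes were under the filter of a mean of 0.5 FPKM and were not tested in the main analysis. When all genes above 0 in any library were kept, *Trp73* had a log2 fold change of -2.16 in 2i (standard error 0.35, limma adjusted p = 0.0256) and of -0.82 in serum (limma adjusted p = 0.529). In that setting WT 2i exceeded WT serum by 1.22 on the log2 scale for *Trp73* (limma adjusted p = 0.0269), while in P53-/- the difference was -0.12 and not called. *Trp63* entered that setting only through its 2i values, since it is listed at 0 in serum. A test of 2i against serum is therefore not informative for *Trp63*, and neither a call nor a fold is given. The values of both genes rest on very few fragments, and the fits also on the added 0.1 FPKM.

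**Figure D1:**
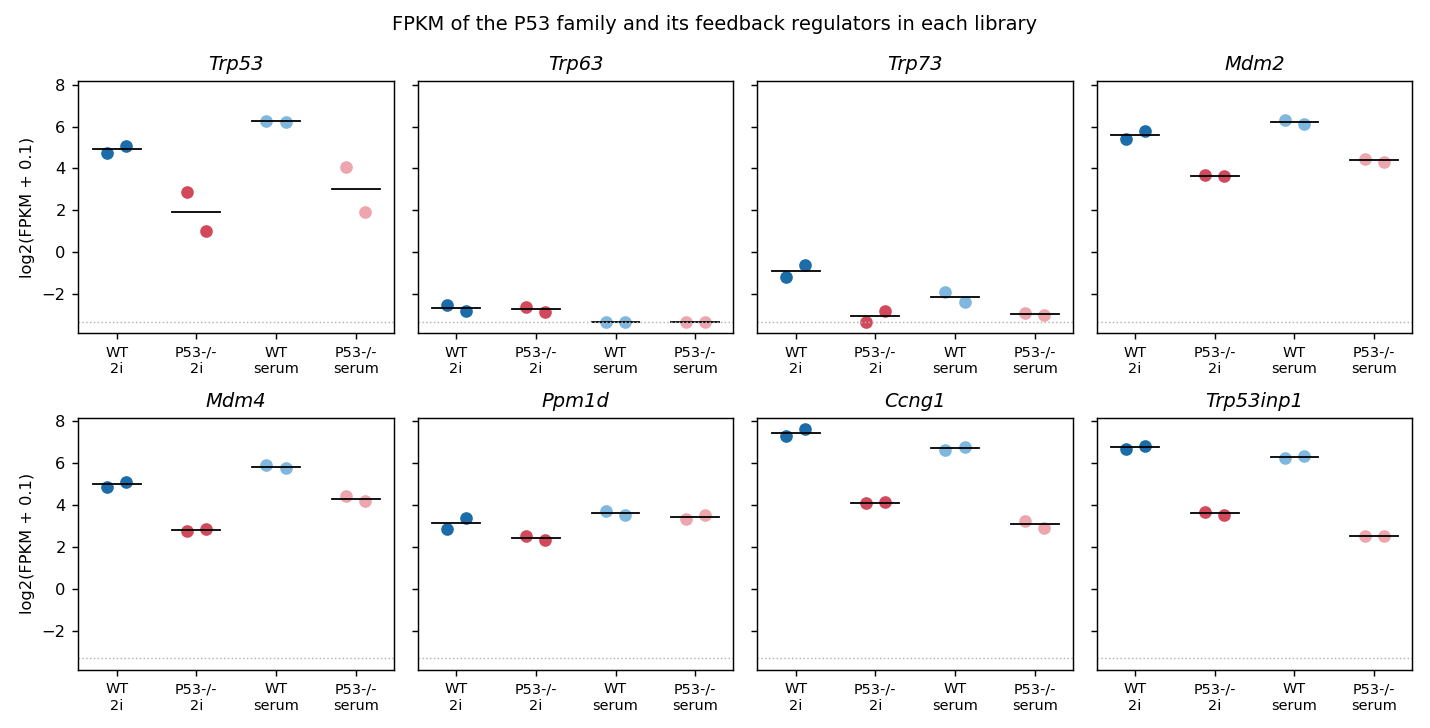
Each point is 1 library and each line a group mean on the log2(FPKM + 0.1) scale, by genotype and culture, with the dotted line at 0 FPKM. The P53-/- points of *Trp53* lie far apart in both cultures, and those of *Ccng1* and *Trp53inp1* lie far below WT. The points of *Trp63* and the P53-/- points of *Trp73* lie on or near the dotted line. The WT points of *Trp73* lie higher in both cultures.

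The 6 members that passed the filter were all called as lower in P53-/- 2i. Of the 12572 genes tested there, 5.97% were lower and 4.36% higher (10.3% in either direction). In serum 4 of the 6 were lower, against 0.883% of all genes (0.135% were higher and 1.02% were called in either direction). No member was higher in either culture. The median log2 fold change of the 6 was -2.58 in 2i and -2.55 in serum, beside medians of 0.02 and 0.02 over all genes tested. Apart from *Trp53* itself, the members split into a pair with the largest falls (*Ccng1* and *Trp53inp1*), the *Mdm* genes with intermediate falls and *Ppm1d* with the smallest.

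*Mdm2* in 2i stood at 42.8 and 54.5 FPKM in the WT libraries against 12.8 and 12.3 in the P53-/- libraries. The serum libraries gave 79.7 and 69.3 FPKM (WT) against 21.8 and 19.8 (P53-/-). The genotypes did not overlap in either culture, and 25.8% of the WT level was left in 2i and 28.0% in serum. On the log2 scale *Mdm2* changed by -1.94 in 2i (standard error 0.15, limma adjusted p = 0.000585) and by -1.83 in serum (standard error 0.15, limma adjusted p = 0.00217). The P53-/- means were 12.5 ± 0.356 FPKM (SD, n = 2) in 2i and 20.8 ± 1.4 (SD, n = 2) in serum, so that *Mdm2* RNA was still readily measured in both.

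*Mdm4* in 2i stood at 28.9 and 34.6 FPKM in the WT libraries against 6.78 and 7.13 in the P53-/- libraries. Its serum values were 59.5 and 55.2 FPKM (WT) against 21.5 and 18.3 (P53-/-). The genotypes did not overlap, and the P53-/- mean was 21.9% of the WT mean in 2i and 34.6% in serum. *Mdm4* had a log2 fold change of -2.17 in 2i (standard error 0.14, limma adjusted p = 0.000264) and of -1.53 in serum (standard error 0.14, limma adjusted p = 0.0043). The difference between the cultures was -0.64 (standard error 0.20, unadjusted p = 0.0129) and did not pass after adjustment over all genes (limma adjusted p = 0.255).

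*Ppm1d* in 2i stood at 7.24 and 10.2 FPKM in the WT libraries against 5.67 and 4.95 in the P53-/- libraries. The serum libraries gave 13.3 and 11.3 FPKM (WT) against 9.94 and 11.3 (P53-/-), with the closest libraries of the genotypes at 11.31 and 11.28. The fall in 2i was small and close to both thresholds (-0.69 as log2 fold change, standard error 0.20, limma adjusted p = 0.0772), leaving 60.8% of the WT level. It was not called when any of 6 of the 8 libraries was left out. These were P53-/- 2i libraries 1 and 2, WT 2i library 2, P53-/- serum library 1 and WT serum libraries 1 and 2. As single libraries were left out, the log2 fold change of *Ppm1d* in 2i ran from -0.94 to -0.44. In serum the log2 fold change was -0.21 (95% interval -0.66 to 0.25, limma adjusted p = 0.733), an interval that includes a fall beyond 1.5-fold.

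*Ccng1* had the highest levels of the 8 genes in WT 2i, 158 and 198 FPKM, against 17.1 and 17.5 in the P53-/- 2i libraries. The serum libraries gave 100.5 and 110.2 FPKM (WT) against 9.39 and 7.5 (P53-/-). The genotypes were separated by a wide gap, and 9.71% of the WT level was left in 2i and 8.01% in serum. *Ccng1* had a log2 fold change of -3.35 in 2i (standard error 0.16, limma adjusted p = 3.86e-05) and of -3.63 in serum (standard error 0.16, limma adjusted p = 7.55e-05), which placed it 35th and 46th among the 12572 genes ordered from the largest fall.

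*Trp53inp1* in 2i stood at 102 and 114 FPKM in the WT libraries against 12.8 and 11.3 in the P53-/- libraries. The serum libraries gave 75.7 and 82.2 FPKM (WT) against 5.57 in both P53-/- libraries. The gap between genotypes was as clear as for *Ccng1*, and what was left was 11.2% of the WT level in 2i and 7.05% in serum. *Trp53inp1* had a log2 fold change of -3.15 in 2i (standard error 0.12, limma adjusted p = 1.52e-05) and of -3.80 in serum (standard error 0.12, limma adjusted p = 2.51e-05). The difference between the cultures was 0.65 (standard error 0.17, unadjusted p = 0.00632) and did not pass after adjustment (limma adjusted p = 0.209).

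**Figure D2:**
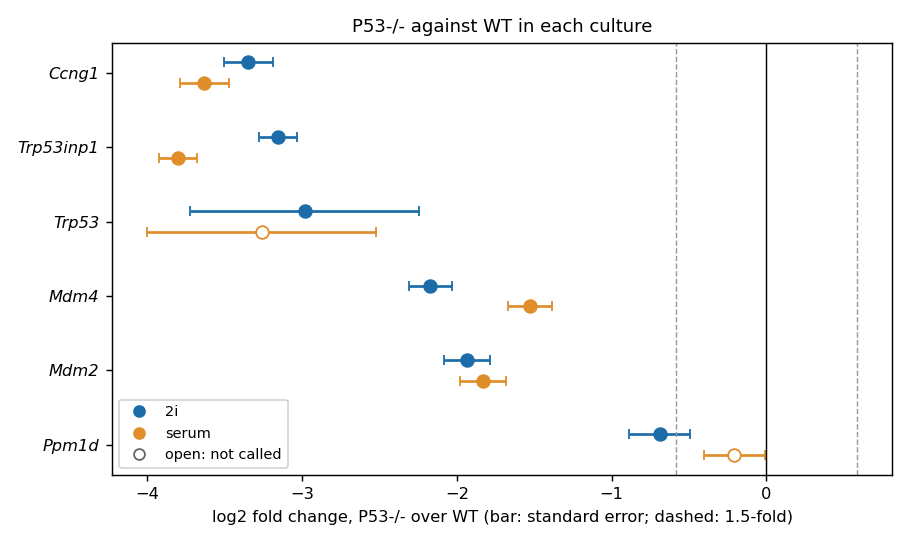
The log2 fold change of P53-/- over WT is shown for the 6 genes tested in 2i and in serum, with the standard error from limma, open points for genes not called and dashed lines at 1.5-fold. *Ccng1* and *Trp53inp1* lie beyond -3 in both cultures, the *Mdm* genes lie between -1.5 and -2.2, and the bars of *Trp53* are the widest.

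The effect of P53 loss on the 6 genes could not be shown to depend on culture. None of them passed the interaction test in limma, which 0.103% of all genes tested passed with a negative sign, 0.103% with a positive sign and 0.207% in either direction. At an unadjusted p under 0.05 there were 2 of the 6, beside 13.1% of all genes, and with 6 genes nothing is read from this count. They were *Mdm4*, with the larger estimate of the fall in 2i, and *Trp53inp1*, with the larger one in serum. The interaction was 0.29 for *Ccng1* (95% interval -0.23 to 0.80), -0.10 for *Mdm2* (-0.59 to 0.38), -0.48 for *Ppm1d* (-1.12 to 0.16) and 0.28 for *Trp53* (-2.15 to 2.70), with limma adjusted p values from 0.499 to 0.938. The interval of *Trp53* is so wide that it sets no useful bound.

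Because FPKM is scaled by length, the order of the members within a group could be compared. In WT 2i the order of the mean levels was *Ccng1* (178 FPKM), *Trp53inp1* (108), *Mdm2* (48.6), *Mdm4* (31.8), *Trp53* (30.2), *Ppm1d* (8.73), *Trp73* (0.442) and *Trp63* (0.0583). The libraries of *Mdm4* and *Trp53* overlapped there, and those of other neighbours down to *Ppm1d* did not. In WT serum *Ccng1* stayed first at 105 FPKM, and *Trp53inp1* (79.0), *Trp53* (76.4) and *Mdm2* (74.5) followed with overlapping libraries. *Mdm4* was at 57.4 and *Ppm1d* at 12.3. In P53-/- serum the order was turned, with *Mdm2* (20.8) and *Mdm4* (19.9) first, then *Ppm1d* (10.6) and *Trp53* (10.2), and *Ccng1* (8.44) and *Trp53inp1* (5.57) last of the 6. In P53-/- 2i *Ccng1* (17.3) was still above *Mdm2* (12.5) and *Trp53inp1* (12.04), whose libraries overlapped, and *Mdm4* (6.95), *Ppm1d* (5.31) and *Trp53* (4.57) followed. The spread of *Trp53* covered its neighbours in both P53-/- groups.

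Ratios within a library do not depend on its scaling. The ratio of *Mdm4* to *Mdm2* was 0.676 and 0.636 (WT) against 0.53 and 0.58 (P53-/-) in 2i, and 0.747 and 0.796 (WT) against 0.985 and 0.92 (P53-/-) in serum. P53-/- thus lay below WT in 2i and above WT in serum, without overlap, and serum lay above 2i in both genotypes. The ratio of *Ccng1* to *Mdm2* was 3.7 and 3.63 (WT) against 1.33 and 1.43 (P53-/-) in 2i, and 1.26 and 1.59 (WT) against 0.43 and 0.378 (P53-/-) in serum. It fell with P53 loss in each culture, and the values of P53-/- 2i lay inside the range of WT serum. *Trp53inp1* and *Ccng1* kept a ratio between 0.576 and 0.754 in the 8 libraries. With 2 libraries against 2, an exact permutation test of a ratio cannot give a two-sided p under 0.33, so these ratios are descriptions.

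**Figure D3:**
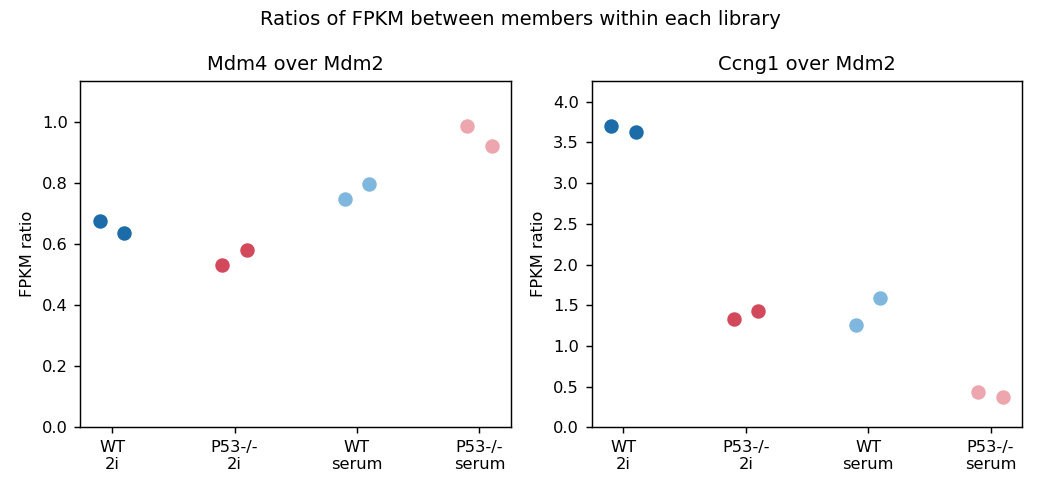
Points are the ratios of FPKM between members in each library, by genotype and culture, on axes that start at 0. *Mdm4* over *Mdm2* lies lowest in P53-/- 2i and highest in P53-/- serum, and *Ccng1* over *Mdm2* lies highest in WT 2i and lowest in P53-/- serum.

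Culture was compared within each genotype. In WT, 2 of the 6 genes tested were lower in 2i than in serum (*Mdm2* and *Mdm4*) and 1 was higher (*Ccng1*), beside 28.6% of all genes lower, 27.2% higher and 55.7% in either direction. In P53-/-, 3 were lower in 2i (*Mdm2*, *Mdm4* and *Ppm1d*) and 2 were higher (*Ccng1* and *Trp53inp1*), beside 30.1% of all genes lower, 28.0% higher and 58.2% in either direction. The count in WT is near the background and that in P53-/- is above it, but with 6 genes nothing is read from either. The values of single genes carry the description.

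*Ccng1* was higher in 2i than in serum in both genotypes, by 1.69-fold in WT and 2.05-fold in P53-/- (log2 fold changes 0.75 and 1.04, limma adjusted p = 0.00429 and 0.000824). *Trp53inp1* was higher in 2i by 2.16-fold in P53-/- (log2 fold change 1.10, limma adjusted p = 0.0002) and by 1.37-fold in WT, where it missed the fold threshold (log2 fold change 0.45, limma adjusted p = 0.0146). *Mdm4* was higher in serum by 1.81-fold in WT and 2.86-fold in P53-/- (log2 fold changes of 2i over serum -0.86 and -1.50, limma adjusted p = 0.00142 and 9.44e-05). *Mdm2* was higher in serum by 1.53-fold in WT and 1.66-fold in P53-/- (log2 fold changes of 2i over serum -0.62 and -0.73, limma adjusted p = 0.00809 and 0.00367). The call for *Mdm2* in WT was lost without WT 2i library 1 (-0.45), without WT serum library 1 (-0.52) and with quantile normalization (-0.44), in each case because the fold change was under 1.5. *Ppm1d* was higher in serum by 2.0-fold in P53-/- (log2 fold change of 2i over serum -0.99, limma adjusted p = 0.00315). In WT its log2 fold change of -0.50 was not called (limma adjusted p = 0.0562), but it was without WT 2i library 2 (-0.75) or WT serum library 2 (-0.62).

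*Trp53* itself was higher in WT serum than in WT 2i by 2.52-fold, with libraries far apart (77.6 and 75.1 against 26.8 and 33.7 FPKM). In the fit of the 4 groups this difference was not called (log2 fold change of 2i over serum -1.34, standard error 0.74, limma adjusted p = 0.151), since the spread of *Trp53* is shared with the P53-/- libraries. In a fit of only the 4 WT libraries the standard error was 0.14 and the difference was called (limma adjusted p = 0.00306), and it was also called without P53-/- serum library 1 (0.0811) or library 2 (0.0731). In P53-/- the cultures overlapped, and the log2 fold change of -1.06 ran from -2.14 to 0.02 as single libraries were left out. It was called without P53-/- 2i library 1 (-2.01, limma adjusted p = 0.0659) and without P53-/- serum library 2 (-2.14, limma adjusted p = 0.0344), and it changed sign without P53-/- serum library 1 (0.02).

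**Figure D4:**
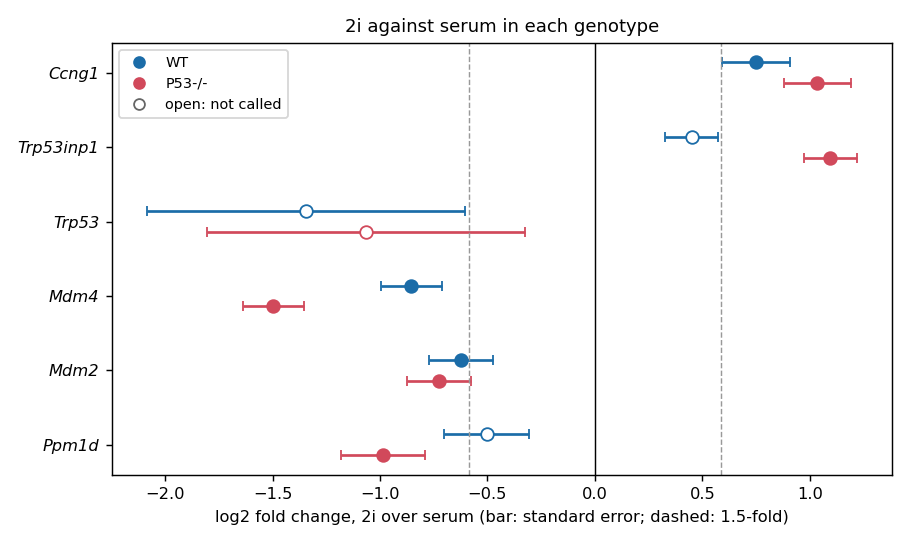
The log2 fold change of 2i over serum is shown for the 6 genes tested in WT and in P53-/-, with the standard error from limma, open points for genes not called and dashed lines at 1.5-fold. *Ccng1* and *Trp53inp1* lie above 0 and the other 4 genes lie below 0 in both genotypes.

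The genes whose pattern over the 8 libraries was nearest to that of each member were found among 9642 genes, as the smallest root mean square difference of centred log2 values. *Ccng1* and *Trp53inp1* were nearest to each other (0.151 on the log2 scale), followed for both by *Btg2*, an antiproliferative P53 target (0.362 from *Ccng1* and 0.401 from *Trp53inp1*), and by *Psrc1*, which encodes a spindle protein (0.464 and 0.488). Nearest to *Mdm2* were *Polk*, a translesion DNA polymerase (0.212), *Ddias* (0.25) and *Lrp1*, an endocytic receptor (0.287). Nearest to *Mdm4* were the kinase gene *Dyrk3* (0.184), *Ddias* (0.2) and the kinase gene *Mapkapk3* (0.252), and nearest to *Ppm1d* were the ubiquitin ligase gene *Rffl* (0.0813), the histone demethylase gene *Kdm5b* (0.101) and *Nxn* (0.111). No gene came close to *Trp53*, for which the smallest differences were 0.853 (*Ptpn14*, a tyrosine phosphatase), 0.877 (*Lrp1*) and 0.921 (*Ptp4a3*). These are descriptions over libraries that share 4 groups.

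Other genes of the P53 pathway were counted from lists. Of 19 genes known to be activated by P53 that were tested, 14 were lower in P53-/- 2i, where 5.97% of all genes were lower and 4.36% higher. In serum 11 were lower, beside 0.883% of all genes lower and 0.135% higher, and none of the list was higher in either culture. Their median was -1.55 on the log2 scale in 2i and -1.04 in serum. *Bbc3*, a proapoptotic gene, changed by -3.96 on the log2 scale in 2i and -2.39 in serum, *Zmat3*, an RNA-binding regulator, by -2.69 and -1.83, and *Cdkn1a*, which encodes P21, by -2.24 and -2.18 (limma adjusted p from 0.000209 to 0.0112). The genes not called in either culture included the repair genes *Xpc* (0.12 and 0.30) and *Ddb2* (0.31 and -0.23) and the stress gene *Sesn1* (-0.19 and 0.33).

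Genes whose products act on P53 or on MDM2 were taken, with some genes named for P53, as 5 lists with 59 genes tested. In 2i limma called 4 of them (6.78%) with P53 loss, beside 10.3% of all genes, and in serum it called 0, beside 1.02% of all genes. At an unadjusted p under 0.05 there were 11 in 2i (18.6%, beside 25.2% of all genes) and 4 in serum (6.78%, beside 11.3% of all genes). None of these shares was above that of all genes, and nothing is read from them about the lists. Of 12 kinases that phosphorylate P53 or signal to it, *Prkdc* was lower in P53-/- 2i (-0.61 as log2 fold change, limma adjusted p = 0.0681), while the checkpoint kinase gene *Chek1* was higher (0.92, limma adjusted p = 0.0202), and none was called in serum. *Chek1* was at 15.8 and 19.5 FPKM in the WT 2i libraries against 33.8 and 32.7 in the P53-/- 2i libraries, with 35.2 and 34.5 in WT serum. The median log2 fold change was 0.02 in both cultures for 14 ubiquitin ligases and deubiquitinases, and 0.00 in 2i and 0.09 in serum for 14 acetylases, deacetylases, methylases and demethylases. Of 10 genes whose products bind and inhibit MDM2, the ribosomal protein gene *Rps27l* was lower in 2i (-0.80 as log2 fold change, limma adjusted p = 0.0363), and in serum its log2 fold change was -0.57 (limma adjusted p = 0.273). *Cdkn2a*, the source of the MDM2 inhibitor ARF, was at 19.9 and 20.4 FPKM (WT) against 29.7 and 25.6 (P53-/-) in 2i, and at 16.7 and 18.7 (WT) against 21.6 and 8.66 (P53-/-) in serum, and was not called (0.45 in 2i and -0.37 in serum). The last list held 9 tested genes named for P53 or acting with it, *Wrap53* among them. Of these *Trp53i13*, known as a P53-inducible gene rather than a cofactor, was higher in P53-/- 2i (0.81 as log2 fold change, limma adjusted p = 0.0729), and none was called in serum.

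Of 6 genes listed as relatives or namesakes of the members, limma called 0 with P53 loss in either culture, and 0 had an unadjusted p under 0.05. Of all genes, 10.3% were called in 2i and 1.02% in serum, and 25.2% and 11.3% had an unadjusted p under 0.05, so that a count of 0 among so few genes says little. *Ccng2*, the relative of *Ccng1*, was at 4.52 ± 0.821 FPKM (SD, n = 2) in WT 2i against 3.2 ± 0.852 (SD, n = 2) in P53-/- 2i, a log2 fold change of -0.50 (limma adjusted p = 0.236), and of 0.21 in serum (limma adjusted p = 0.779). *Trp53inp2*, the relative of *Trp53inp1*, had log2 fold changes of 0.09 in 2i and 0.13 in serum (limma adjusted p = 0.871 and 0.898).

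**Figure D5:**
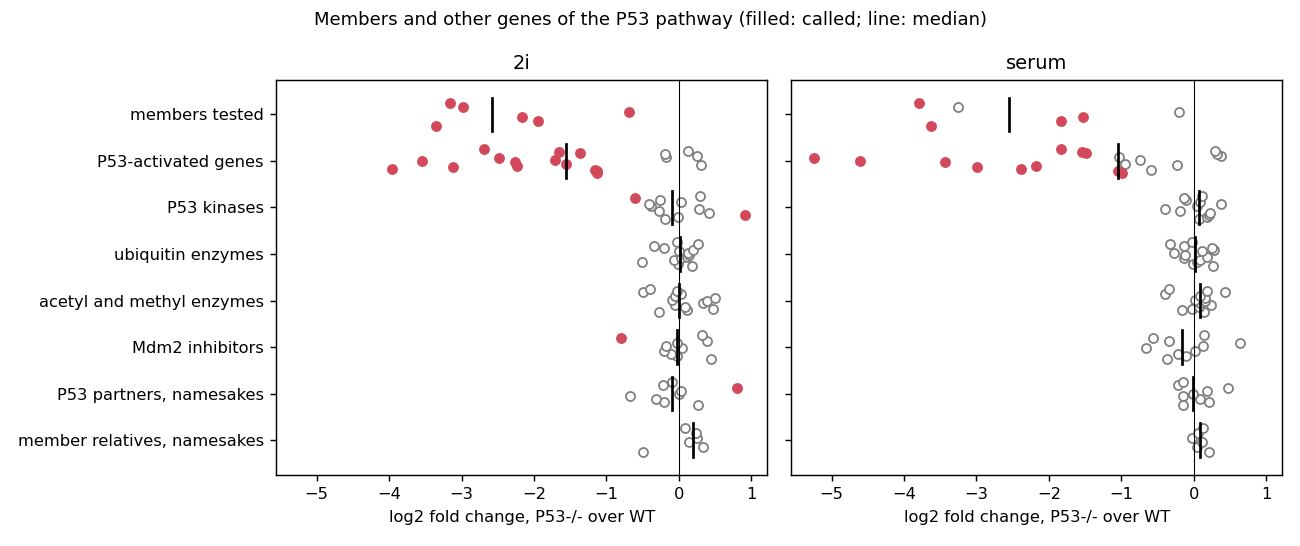
Each point is the log2 fold change of 1 gene, P53-/- over WT, for the 6 members tested and 7 lists of the pathway in 2i (left) and serum (right), filled where called, with a line at the median of a list. Filled points are frequent among members and P53-activated genes, and 2 kinases, 1 MDM2 inhibitor and 1 gene of the list of P53 partners and namesakes are filled in 2i.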

How the data were processed

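RNA-seq libraries of G1-phase WT and P53-/- ESCs in 2i and serum were prepared from total RNA after ribosomal RNA depletion with random primers and a stranded kit, per the labels. The values deposited by the authors are FPKM, in 1 table with a column for each library, scaled by transcript length and mapped fragments. The submitters' processing notes name STAR, Cufflinks and DESeq2 and the build mm9. Versions and the annotation are not given in the sources used here. Promoter windows and transcript lengths come from GRCm38, and no coordinate of mm9 is printed. Columns name genotype and culture only, so no replicate number was assigned.

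The log2(FPKM + 0.1) values of 12572 genes whose mean reached 0.5 FPKM were tested with limma 3.58.1 in R 4.3.3, in 1 fit of the 4 groups with a trend in eBayes and Benjamini-Hochberg adjustment over all genes tested. Thresholds (adjusted p under 0.1, fold change over 1.5) are those of the study. Fold changes on this scale understate those of low genes. Intervals are the 95% intervals of limma. Depth was read from the steps of low FPKM values of genes with 1 GENCODE M21 transcript. Tables were made in pandas 2.3.3 and numpy 2.4.6 and figures in matplotlib 3.10.9, under Python 3.11.15. In simulated data of this layout with 12572 genes with 200 given a log2 change of 2 in P53-/- 2i, 165 of the 200 were called. This holds for that size of change only, and not for smaller changes or for the interaction. The members and lists were chosen with earlier results of these data known. All members are named, with at most 6 called genes per list and the 3 genes nearest to each member with a mean of 1 FPKM or more and an SD of at least 0.25 on the log2 scale. Genes of a list that were not called and are named were chosen after their values were seen. Alternatives are given in the closing section.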

Additional observations from a re-analysis of the deposited data

How the results depend on the processing

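Settings were changed one at a time: the pseudocount (1 or 0.01), the filter (a mean of 1 FPKM, or all genes above 0 in a library), scaling by median ratios or quantiles, the samples in the fit (compared groups alone), eBayes with no trend, a limit of 0.05 on the adjusted p, and each library left out, where a lone library was assumed to vary like the other groups. Between 4 and 6 of the 6 members tested were called for P53 loss in 2i, 4 to 5 in serum, 0 for the interaction, 2 to 4 for culture in WT and 5 to 6 for culture in P53-/-. Of the 30 results for single members, 20 kept their direction and their side of the thresholds under every alternative, and these include P53 loss in both cultures for *Mdm2*, *Mdm4*, *Ccng1* and *Trp53inp1*. The others belong to *Trp53*, to *Ppm1d*, to *Mdm2* (culture in WT, interaction) and to *Trp53inp1* (culture in WT, called with quantile normalization at 0.65). As single libraries were left out, the interaction ran from -0.80 to 1.36 for *Trp53* and from -0.28 to 0.070 for *Mdm2*, and culture in P53-/- from -2.14 to 0.015 for *Trp53*. The sign changed for the interaction of *Trp53* without P53-/- 2i library 1 (-0.67) or P53-/- serum library 2 (-0.80), for the interaction of *Mdm2* without WT 2i library 2 (0.070) and for culture in P53-/- for *Trp53* without P53-/- serum library 1 (0.015). The falls in 2i of *Trp53* and *Ppm1d* were also not called in a fit of the 2i libraries alone (limma adjusted p = 0.163 and 0.245), without the trend (0.105 and 0.121) and at an adjusted p under 0.05 (0.0547 and 0.0772), and that of *Ppm1d* not with all genes above 0 (0.107). No paired analysis was possible because the columns carry no replicate numbers. Depth limits *Trp63* and *Trp73*, whose FPKM values correspond to few fragments.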

Other observations

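Between WT 2i and WT serum, 25 of the 59 genes tested in the 5 lists of regulators were lower in 2i (42.4%, beside 28.6% of all genes) and 7 were higher (11.9%, beside 27.2% of all genes). In either direction 54.2% were called, beside 55.7% of all genes, and the split by direction was not tested. The lower and higher genes were 8 and 2 of 14 ubiquitin ligases and deubiquitinases, 5 and 0 of 12 kinases, 5 and 0 of 14 acetylases, deacetylases, methylases and demethylases, 4 and 4 of 10 MDM2 inhibitors and 3 and 1 of 9 genes named for P53 or acting with it. *Huwe1*, a ligase of P53 and other substrates, was at 20.6 and 24 FPKM in WT 2i against 64.6 and 66.6 in WT serum, a log2 fold change of 2i over serum of -1.56, and the same value of -1.56 in P53-/- (limma adjusted p = 8.73e-05 and 7.16e-05). The deubiquitinase gene *Otub1* went the other way, with log2 fold changes of 1.22 in WT and 1.06 in P53-/- (limma adjusted p = 0.000307 and 0.00051). Among kinases, *Atm*, the kinase that signals DNA breaks to P53, was at 8 and 10.4 FPKM in WT 2i against 22.4 and 23.2 in WT serum (log2 fold change -1.31, limma adjusted p = 0.000328). *Ep300*, an acetylase of P53, was at 4.48 and 5.26 FPKM in WT 2i against 17.3 and 22 in WT serum (log2 fold change -1.99, limma adjusted p = 0.000152).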
